A study of Mus musculus with 8 samples.

Results

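The myelin structural genes were described across sections of mouse brain. They are Mbp, Mobp, Mag, Mog, Cnp, Mal, Cldn11, Ermn and Opalin, chosen by their symbols, and they are 9 of the 32285 genes in the files. Spatial transcriptomics was run on 8 coronal sections of male p16-3MR mice aged 9 to 10 months. Tissue spots of 55 µm on a slide capture RNA from a 10 µm section, so a spot can hold parts of several cells, and each captured molecule is counted once as a unique molecular identifier (UMI). The p16-3MR transgene drives a fusion protein that holds a viral thymidine kinase from the p16 promoter, so that ganciclovir (GCV) kills cells in which that promoter is active. Every mouse carried the transgene, Control included. The 4 groups, of 2 sections each, were PTX+GCV (paclitaxel at 5 mg/kg/day in 2 cycles of 5 days with 7 days between them, then GCV at 25 mg/kg/day), PTX+ABT263 (the same paclitaxel, then ABT263, an inhibitor of BCL-2 family proteins, at 1.5 mg/kg/day), PTX (paclitaxel, then vehicle) and Control (vehicle). Both senolytic agents were given in 2 cycles of 5 days that lay 2 weeks apart, and brains were taken 6 months after paclitaxel. Nothing in the labels says that both sections of a group are of different mice, so p-values measure the spread between sections, which may be technical.

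The sections labelled PTX+ABT263 went against their label in one respect. They held 754 and 695 UMIs of Xist, which is made from the silenced X chromosome in females, against 0 or 1 in every other section, and 17 and 0 UMIs of the Y-linked gene Ddx3y, against 711 to 1350 elsewhere, although all mice were labelled male. They are called "the sections labelled PTX+ABT263" below. The main tests within a region or whole section that do not involve that group were also run without it. Tests of differences between regions were not, so their spread always includes that group. A section held 19870666 to 42886400 UMIs over 2346 to 2839 spots, with a median of 7583 to 15715 UMIs per spot. Spots were clustered without the members and without other genes of mature oligodendrocytes, and clusters were named by markers. This gave 4839 isocortex spots, 3349 thalamus spots and 2444 spots of fiber tracts, the white matter. Fiber tract spots were shallow, with medians of 1067 to 5302 UMIs in a section, against 8577 to 24160 in the isocortex and 6725 to 15309 in the thalamus. The fiber tracts were named by oligodendrocyte and white matter genes, so a high level of the members there is in part what the naming asked for.

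Myelin is the sheath of tightly wrapped membrane that oligodendrocytes lay around axons in the brain. It lets impulses jump between the gaps in the sheath, the nodes, and it makes up much of white matter, while grey matter holds thinner bundles of myelinated axons. The members cover its parts. Mbp encodes the basic protein that glues the inner faces of the membrane together, and Mobp another basic protein of compact myelin. Cnp encodes a cyclic nucleotide phosphodiesterase that keeps cytoplasmic channels in the sheath open. Cldn11 encodes the claudin of myelin's tight junctions, and Mal a raft proteolipid of membrane traffic. Mag encodes an adhesion molecule that faces the axon, and Mog a glycoprotein of the outermost layer. Ermn encodes a cytoskeletal protein of mature oligodendrocytes, and Opalin a glycoprotein of the loops beside the node. SOX10 and other transcription factors of oligodendrocytes are known activators of myelin genes.

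The 9 genes lie on 8 chromosomes: Mbp on 18, Mobp on 9, Mag on 7, Mog on 17, Cnp on 11, Mal and Ermn on 2, Cldn11 on 3 and Opalin on 19. Their levels moved together over the brain, as shown further on, so the stretches before their annotated starts are shown where they hold the core of the SOX motif. Windows of 250 bases before a start were taken from RefSeq (build GRCm38.p6). The table held 10 windows for 8 members, since Mag has 3 starts, and the window of Mbp was not used here. Capitals mark ACAAAG or ACAATG on the strand shown, or the same letters on the other strand, which read CTTTGT or CATTGT. No 2 of the marked stretches overlap.

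Mobp (chr9:120149492-120149741, plus strand): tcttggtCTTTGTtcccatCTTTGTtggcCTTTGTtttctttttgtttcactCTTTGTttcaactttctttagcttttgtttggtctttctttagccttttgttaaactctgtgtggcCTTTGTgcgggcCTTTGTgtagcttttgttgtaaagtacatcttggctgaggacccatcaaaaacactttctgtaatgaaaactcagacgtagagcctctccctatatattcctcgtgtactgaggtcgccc
Mag (chr7:30914864-30915113, minus strand): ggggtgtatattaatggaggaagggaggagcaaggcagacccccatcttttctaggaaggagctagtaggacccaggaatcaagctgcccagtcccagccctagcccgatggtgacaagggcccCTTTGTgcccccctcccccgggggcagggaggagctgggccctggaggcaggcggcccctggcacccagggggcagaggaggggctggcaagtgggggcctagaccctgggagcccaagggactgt
Cnp (chr11:100574689-100574938, plus strand): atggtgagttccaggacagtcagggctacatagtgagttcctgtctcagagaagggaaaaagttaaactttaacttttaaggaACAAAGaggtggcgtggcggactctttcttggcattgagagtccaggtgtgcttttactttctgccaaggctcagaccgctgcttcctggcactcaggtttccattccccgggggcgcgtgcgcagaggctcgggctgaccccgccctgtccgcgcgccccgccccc
Ermn (chr2:58052865-58053114, minus strand): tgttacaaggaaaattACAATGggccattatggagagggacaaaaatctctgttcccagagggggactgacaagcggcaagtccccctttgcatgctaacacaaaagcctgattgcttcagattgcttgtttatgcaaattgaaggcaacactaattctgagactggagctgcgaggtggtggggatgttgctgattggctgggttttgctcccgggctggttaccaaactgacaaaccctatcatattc
Opalin (chr19:41077114-41077363, minus strand): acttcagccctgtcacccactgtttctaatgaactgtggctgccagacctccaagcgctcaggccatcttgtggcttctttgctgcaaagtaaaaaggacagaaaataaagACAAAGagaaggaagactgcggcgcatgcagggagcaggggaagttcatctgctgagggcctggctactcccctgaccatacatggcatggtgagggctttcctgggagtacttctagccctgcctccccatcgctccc

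The window of Mobp held 6 matches, all ACAAAG on the other strand. Those of Mag, Cnp and Opalin held 1 match of ACAAAG each on one strand or the other, and that of Ermn held 1 match of ACAATG. A second start of Mag lies a little upstream, and its window shares the same match, while the third held none. The windows of Mog, Mal and Cldn11 held none. Of 32851 promoter windows of this length, the members' own included, 25.2% held at least 1 match, 4.12% at least 2, 0.493% at least 3 and 0.00304% at least 6. The last share is the window of Mobp itself, so it is no background for Mobp. A match is a description of the letters, and binding was not measured here.

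The members made up 0.388% of all UMIs, between 0.31 and 0.474% in a section. Of their 1060951 UMIs, 61.7% were Mbp, 14.9% Mobp, 6.71% Cnp and 1.2% Opalin, as counts of captured molecules that are not scaled to transcript length. White matter held far more of them than its share of all UMIs. The fiber tracts gave 20% of the members' UMIs from 11.5% of the spots and 2.8% of all UMIs. The thalamus gave 18.7% from 15.7% of the spots, and the isocortex 19.2% from 22.7% of the spots and 28.9% of all UMIs.

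**Figure D1:**
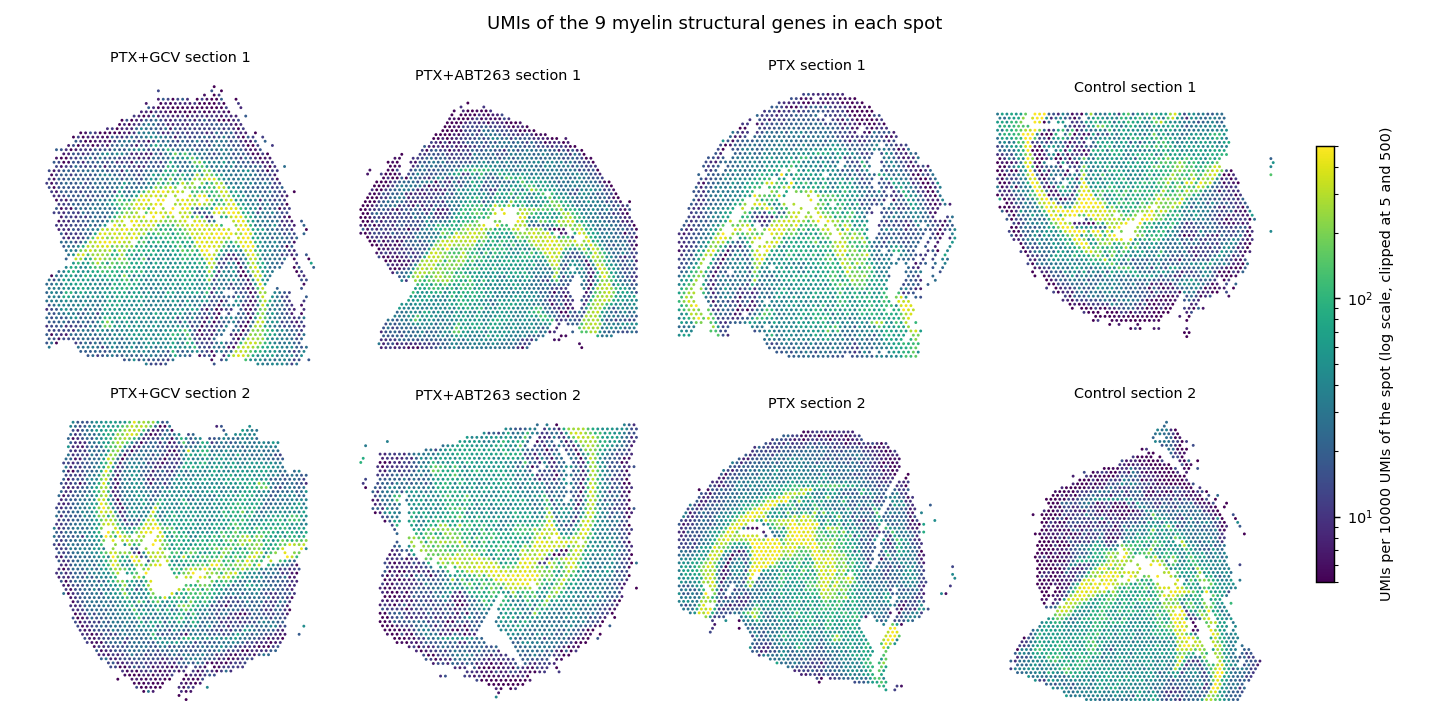
Each dot is 1 spot of a section at its place on the slide, coloured by the UMIs of the 9 genes per 10000 UMIs of the spot on a log scale that is clipped at 5 and 500. Bright bands are the fiber tracts, gaps are places without a spot or with a spot left out, and sections differ in how they lie and in which parts of the brain they show.

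Levels are given per 10000 UMIs of a region (mean ± SD over 8 sections). The 9 genes together reached 270.1 ± 42.4 in the fiber tracts, 50.73 ± 7.91 in the thalamus and 25.77 ± 1.80 in the isocortex. Every section kept this order. The fiber tracts ran from 215.2 to 336.1, the thalamus from 39.06 to 62.68 and the isocortex from 22.50 to 28.12, so the 3 ranges do not overlap. Since the regions came from the same spots, these levels are described and not tested.

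The basic proteins had the smallest ratios of white matter to isocortex. Mbp stood at 158.0 ± 28.4 in the fiber tracts, 31.69 ± 5.43 in the thalamus and 16.51 ± 1.31 in the isocortex, and its ratio of fiber tracts to isocortex within a section was 9.55 ± 1.39. Mobp stood at 41.50 ± 7.61 in the fiber tracts, 7.460 ± 1.52 in the thalamus and 3.823 ± 0.526 in the isocortex, with a ratio of 10.94 ± 2.01. The enzyme Cnp had 18.48 ± 2.21 in the fiber tracts and 1.586 ± 0.114 in the isocortex (ratio 11.69 ± 1.44). The junction and traffic genes had larger ratios: Cldn11, with 11.36 ± 1.62 in the fiber tracts, and Mal, with 14.72 ± 1.39, both had a mean ratio of 14.32 (SD 2.58 and 2.79). Of the surface genes, the axon-facing Mag had a ratio of 12.24 ± 2.09 and the outer Mog one of 14.62 ± 3.83. Ermn had the highest mean ratio, 15.35 ± 2.17, and Opalin one of 12.74 ± 3.06. The ratios of neighbouring genes in this order differ by less than their spread over sections, and only the ends of the order, Mbp and Ermn, had ranges that do not overlap (8.06 to 11.55 and 12.49 to 18.47). The genes share their sections, however. Within each section Mbp had a lower ratio than every other member, apart from Opalin in PTX section 1 (8.85 for Mbp and 8.58 for Opalin).

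Thalamus and isocortex, both grey matter, differed less, and the order of the genes was another one. Mbp, Mobp, Mal, Cnp and Cldn11 had mean ratios of thalamus to isocortex between 1.92 and 2.13, and Ermn, Mag and Mog between 2.43 and 2.55. Opalin had the lowest mean ratio, 1.49 ± 0.40, and its range of 1.13 to 2.35 overlaps that of every other member. Within sections it had the lowest ratio of the members in all but Control section 1, where it had 2.35, Mbp 2.29 and Mobp 2.21. It had 0.453 ± 0.088 in the thalamus and 0.312 ± 0.064 in the isocortex, although its ratio of fiber tracts to isocortex was within the range of the others.

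Share of spots with a UMI gave the same picture of graded levels. After each spot was thinned to 2000 UMIs, Mbp was found in every fiber tract spot that was kept, 98.7% ± 1.12 of thalamus spots and 88.8% ± 0.926 of isocortex spots. Opalin, the member with the fewest UMIs, was found in 51.0% ± 5.82, 8.26% ± 1.71 and 6.39% ± 1.96. Without thinning the values for Opalin were 52.3%, 37.8% and 34.7%. Thinning left out 18 to 208 fiber tract spots in a section as too shallow, and at most 13 spots elsewhere.

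**Figure D2:**
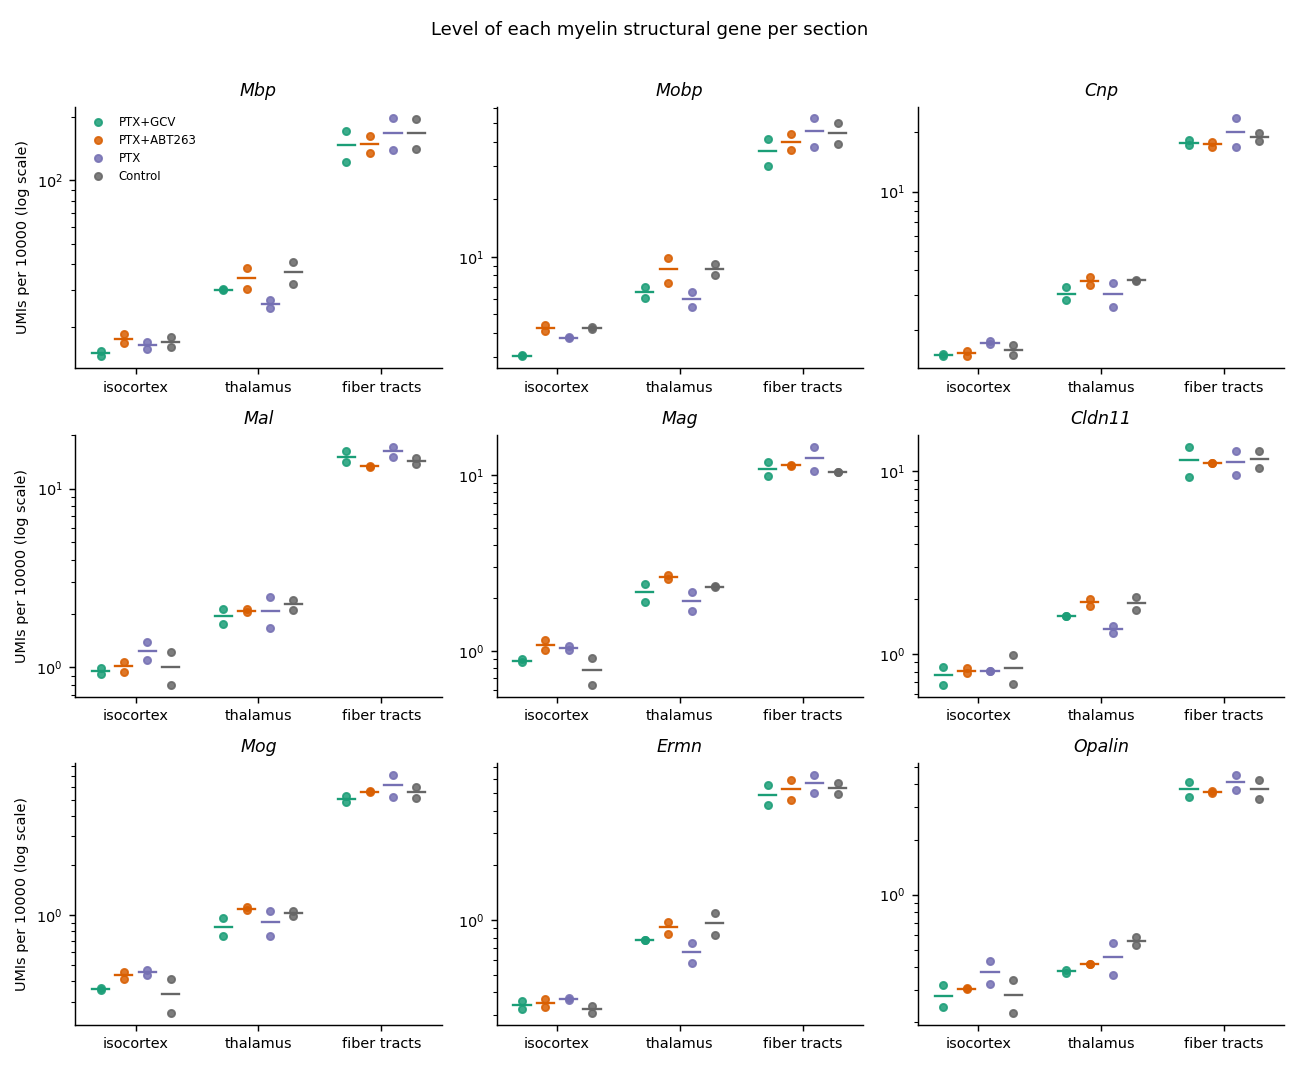
UMIs per 10000 UMIs of a region on a log scale, 1 panel per gene. Each point is 1 section, the short line is the mean of the 2 sections of a group, and colours stand for the groups. In every panel the points of the fiber tracts lie above those of the thalamus and the isocortex.

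Outside these 3 regions the members were highest in an unnamed cluster of 357 spots led by Six3, Spp1 and Pvalb, with 82.94 ± 9.31 UMIs per 10000 for their sum. The larger hypothalamus cluster had 53.38 ± 8.89, the meninges 51.45 ± 15, the habenula 51.08 ± 6.71 and the striatum 49.73 ± 5.6, which do not differ from the thalamus beyond their spread. Within the isocortex the cluster led by Trbc2, Myl4 and Hs3st2, which also held the deep layer genes Fezf2, Nr4a2 and Ccn2, had 36.09 ± 3.29. The cluster led by Lamp5, a gene of upper layers, had 14.66 ± 1.49. The hippocampus had 19.96 ± 2.30. Another unnamed cluster, of 3145 spots led by Ccn3, Lypd1 and Kcng1, had 14.45 ± 2.71. In it 3 markers of the piriform cortex and amygdala and 3 of the isocortex were raised. Any isocortex spots in it are left out of the isocortex levels given here.

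In the isocortex the level declined with distance from the white matter. At 1 spot spacing from the nearest fiber tract spot the sum of the members was 73.50 ± 10.8 per 10000, at 2 spacings 47.06 ± 4.02, at 3 spacings 32.87 ± 3.29 and at 4 spacings 27.21 ± 1.95. It was 23.45 ± 2.80 at 5 to 6 spacings, 18.08 ± 3.56 at 7 to 9 and 8.70 ± 2.58 at 10 or more, a bin in which 1 section had only 7 spots. In the thalamus the decline of the mean was shallower, with 66.65 ± 11.5 at 1 spacing, 57.97 ± 10.6 at 3, 48.51 ± 6.76 at 5 to 6 and 44.45 ± 6.85 at 7 to 9. Not every section showed it. PTX section 2 had 43.75 at 1 spacing, from 14 spots, and 40.29 at 7 to 9, and Control section 1 had 58.84 at 1 and 70.93 at 3 spacings. At 1 spacing the values of both regions overlap, and at 7 to 9 spacings they do not. The bin of 10 or more spacings in the thalamus held as few as 1 spot in a section and is not read.

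**Figure D3:**
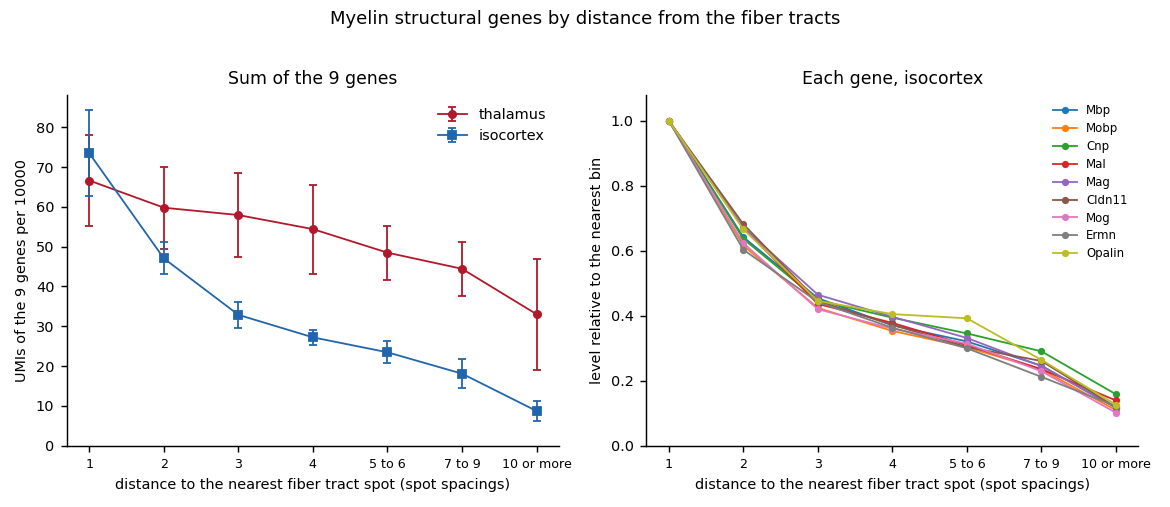
Left, UMIs of the 9 genes per 10000 (mean ± SD over sections) against distance from the nearest fiber tract spot, in spot spacings, for thalamus and isocortex spots. Right, the mean level of each gene in the isocortex relative to its bin at 1 spacing. The isocortex declines to 18.08 at 7 to 9 spacings, where the thalamus is at 44.45.

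The members followed one another across the brain. Over 64 points, 8 named regions in 8 sections, the log2 level of each member correlated with the mean of the other 8 at 0.959 (Opalin) to 0.989 (Mal). Among 11373 genes, the members included, those near to the mean of the members included Evi2a (Pearson r = 0.988), Gatm (0.987), an enzyme of creatine synthesis, Tmem88b (0.986) and Pllp (0.985), a membrane proteolipid of myelin. The points share sections and regions, and Tmem88b and Pllp were among the markers that named the fiber tracts, so these values only describe. Between spots of 1 region the correlations were weaker. The median over the 36 pairs of members was 0.383 in the isocortex, 0.3 in the thalamus and 0.313 in the fiber tracts, over spots of at least 2000 UMIs. Mobp and Mbp made the closest pair in each region (0.782, 0.674 and 0.769). In these sparse counts the lowest pair, Opalin and Ermn in the fiber tracts (0.128), rests on few UMIs per spot.

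For the comparisons between groups UMIs were summed per section and region and tested with edgeR over all genes that passed a filter on low counts, which all 9 members passed in the whole section and in each of the 3 regions. The adjusted p-values are Benjamini-Hochberg values over all these genes, and levels are CPM, counts scaled to a common library size with TMM factors. Shares of all genes called belong to this edgeR fit, or to limma where it is named. None is given for DESeq2 or the other alternative fits. In tissue sections a lower level cannot be told apart between fewer oligodendrocytes and less RNA in each. The 3 comparisons share the PTX sections, so their values are set side by side and are not independent of one another. The share of white matter spots overlapped between the groups compared: fiber tracts made up 13.41 and 10.50% of spots in PTX+GCV, 11.15 and 11.31% in sections labelled PTX+ABT263, 10.95 and 12.32% in PTX and 10.40 and 11.47% in Control. The differences were 0.317 percentage points for PTX+GCV against PTX, -0.404 for PTX+ABT263 against PTX and 0.697 for PTX against Control (exact two-sided permutation p = 1, p = 1 and p = 0.667, where 0.33 is the smallest that 2 against 2 sections can give). This depended on how spots were chosen. With Leiden clusters the shares were 11.57 and 11.72% in sections labelled PTX+ABT263, against 12.2 and 13.27% in PTX, and with all spots under tissue 11.45 and 10.8% against 12.75 and 12.35% in PTX, so that the groups no longer overlapped. The difference for PTX+GCV against PTX was -1.054 points with Leiden clusters and -0.064 with the listed genes kept in the clustering. Whole-section levels weight spots by their UMIs. Of a section's UMIs, fiber tracts gave 3.046 and 1.34% in PTX+GCV and 1.799 and 4.193% in PTX. They gave 2.796 and 4.471% in sections labelled PTX+ABT263 and 2.832 and 2.131% in Control.

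In the thalamus members differed between PTX and Control. Of the 9 members 4 fell in PTX and 0 rose, where 6.87% of the 13123 genes tested were called, and all 9 log2 fold changes were negative, with a median of -0.30 against 0.01 over all genes. The basic proteins were among them. Mbp had 2703 and 2444 CPM in PTX thalamus, against 3908 and 3321 CPM in Control. Mobp had 657.6 and 545.6 CPM in PTX, against 878.9 and 835.8 CPM in Control. Both PTX sections lay below both Control sections for these 2 genes, and the log2 fold changes were -0.49 ± 0.13 for Mbp (SE, adjusted p = 0.0318) and -0.51 ± 0.13 for Mobp (adjusted p = 0.0243). Cldn11, the claudin, had 141.7 and 129.2 CPM in PTX and 165.0 and 211.1 CPM in Control, a change of -0.49 ± 0.11 (adjusted p = 0.0151). Ermn, the cytoskeletal gene, had 74.86 and 57.49 CPM in PTX and 104.0 and 85.19 CPM in Control, a change of -0.48 ± 0.13 (adjusted p = 0.0341). Neither pair of groups overlaps.

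The other 5 members did not pass. Mag had 215.1 and 167.1 CPM in PTX and 221.4 and 238.0 CPM in Control, which do not overlap (-0.26 ± 0.12, adjusted p = 0.232). For Cnp (-0.22 ± 0.12), Opalin (-0.30 ± 0.16), Mog (-0.16 ± 0.14) and Mal (-0.12 ± 0.15) PTX section 1 lay within or above the Control values, and adjusted p-values ran from 0.297 to 0.717. The 5 members without overlap compare with 23.9% of all genes for which both PTX sections lay below both Control sections. PTX section 2 was the lowest of the 8 sections for 7 of the 9 members. Without it 0 of 9 members passed (smallest adjusted p = 0.104), and without PTX section 1 it was 8. Without Control section 1 only Cldn11 passed, and without Control section 2 Mbp, Mobp and Ermn did. Leaving out either PTX+GCV section, which only adds to the estimate of spread, left Mobp and Cldn11. Without the PTX+ABT263 group the same 4 genes passed, and they passed also over thalamus spots at least 3 spacings from the fiber tracts, a setting chosen after seeing the data. DESeq2 called Mbp, Mobp and Cldn11 but not Ermn, and so did edgeR with library totals, while with only the 2 groups in the fit Mobp and Cldn11 passed.

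The sections labelled PTX+ABT263 stood above PTX in the thalamus. Of the 9 members 5 rose against PTX and 0 fell (4.27% of all genes called), 8 fold changes were positive, and the median log2 fold change was 0.48 against 0.00 over all genes. Mbp had 3198 and 3960 CPM in sections labelled PTX+ABT263 and 2703 and 2444 CPM in PTX (0.48 ± 0.13, adjusted p = 0.0480). Mobp had 774.3 and 1029 CPM against 657.6 and 545.6 CPM in PTX (0.58 ± 0.13, adjusted p = 0.0159). The junction gene Cldn11 moved with them: it had 192.6 and 208.1 CPM in sections labelled PTX+ABT263, against 141.7 and 129.2 CPM in PTX (0.56 ± 0.11, adjusted p = 0.00828). Mag, which faces the axon, had 269.1 and 283.5 CPM against 215.1 and 167.1 CPM in PTX (0.53 ± 0.12, adjusted p = 0.0174). Ermn had 88.78 and 101.9 CPM against 74.86 and 57.49 CPM in PTX (0.51 ± 0.13, adjusted p = 0.0278). For 7 members, Mog and Cnp among them, both sections labelled PTX+ABT263 lay above both PTX sections, which was so for 24.6% of all genes. Opalin (-0.07 ± 0.15) and Mal (0.07 ± 0.15) overlapped. Here too the call rests on single sections: without PTX section 2 it was 0 of 9 members (smallest adjusted p = 0.0686), without section 2 of the PTX+ABT263 group also 0, without PTX section 1 it was 7, and without either PTX+GCV section it was 3. DESeq2 called the same genes but Ermn, and with library totals Mobp, Mag and Cldn11 passed. Mbp was the gene lost with thinned counts, with the replicate block, with Leiden clusters and over thalamus spots at least 3 spacings from the fiber tracts, where the other 4 passed. The sex markers of these sections also separate them from PTX, and their part in the result was not tested.

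PTX+GCV against PTX gave no call in the thalamus. By edgeR 0 of 9 members passed (0.221% of all genes called), 0 had an unadjusted p under 0.05 (11.2% of all genes), and DESeq2 called 0. Mbp had 3014 and 2866 CPM in PTX+GCV, against 2703 and 2444 CPM in PTX (0.19 ± 0.13, adjusted p = 0.639). Opalin had 38.68 and 35.64 CPM in PTX+GCV, against 54.52 and 36.07 CPM in PTX (-0.31 ± 0.16, adjusted p = 0.483). The signs were mixed, with 5 positive and 4 negative. For Mbp and for Cldn11, with 160.3 and 154.2 CPM in PTX+GCV against 141.7 and 129.2 CPM in PTX, both PTX+GCV sections lay above both PTX sections, which makes 2 of 9 members where it was so for 21% of all genes.

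**Figure D4:**
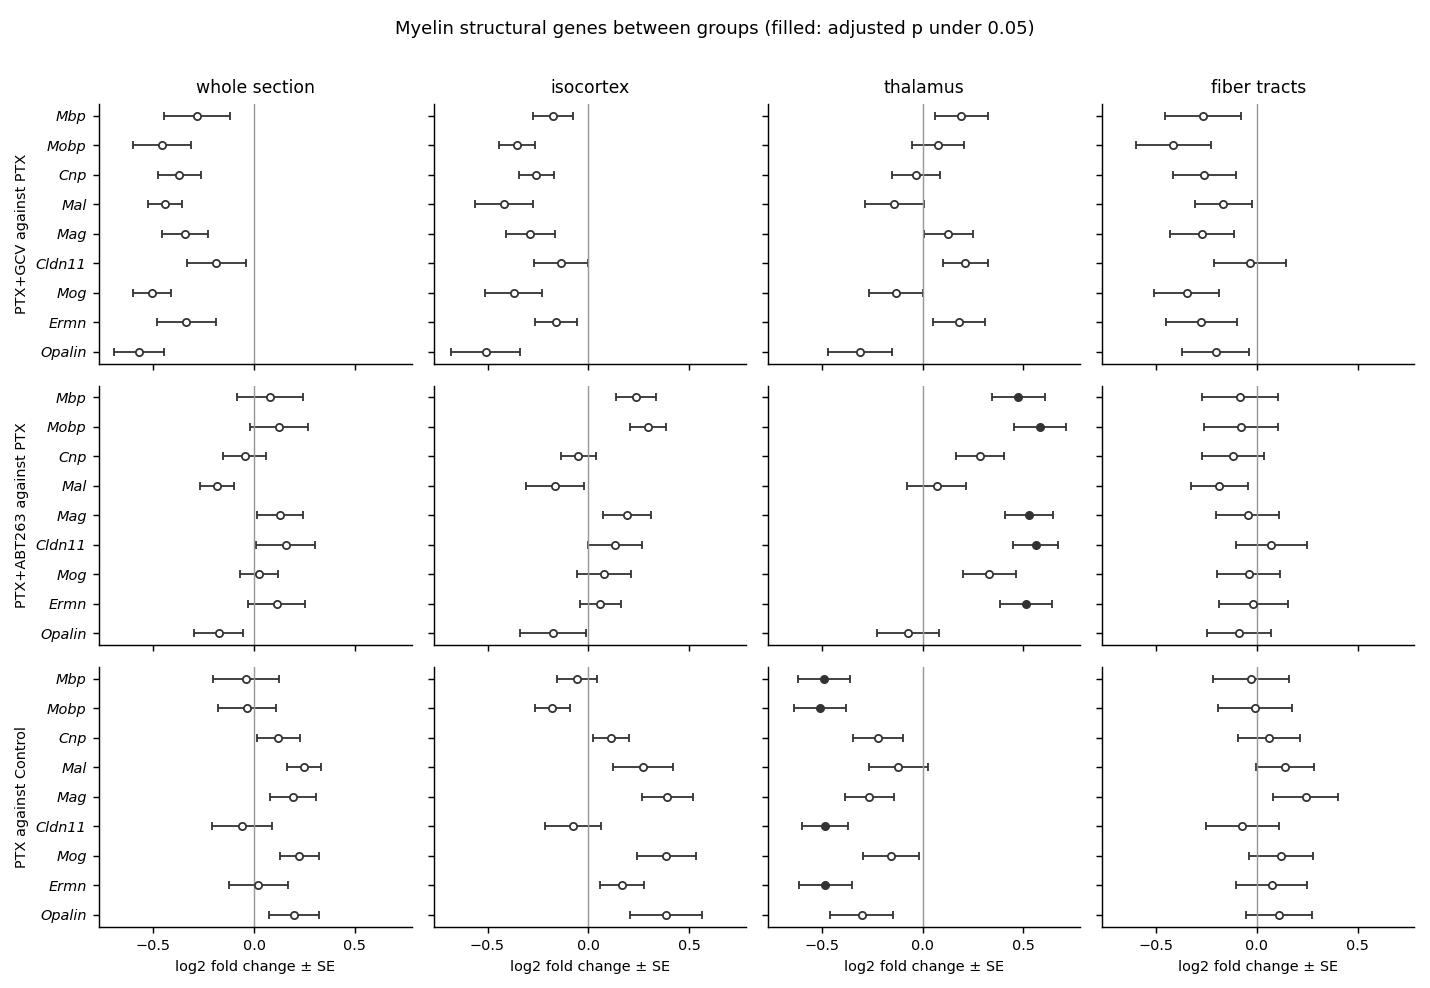
Log2 fold changes ± SE of the 9 genes from edgeR, with comparisons in rows and regions in columns, and filled points for an adjusted p under 0.05. Filled points stand only in the thalamus: 5 to the right of 0 for PTX+ABT263 against PTX, and 4 to the left for PTX against Control.

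Other genes moved with the thalamus result, and their part in it was not tested. Between PTX and Control, where 6.87% of all genes were called, 5 of 36 other genes of mature oligodendrocytes fell and 0 rose, among them Il33, an alarmin (-0.63 ± 0.12, adjusted p = 0.00351), and Plekhb1 (-0.55, adjusted p = 0.0117). Of 11 oligodendrocyte transcription factors Olig2 (-0.51, adjusted p = 0.0206) and Sox8 (-0.82, adjusted p = 0.0408) fell, and of 14 genes of precursors and new oligodendrocytes 0 passed (1 at an unadjusted p under 0.05, against 20% of all genes). Genes outside the lineage moved as well. Of 18 genes of axons, nodes and paranodes 11 fell, Kcnab2 first (-0.64, adjusted p = 0.00116), a subunit of the potassium channels beside the node. Of 24 genes of cholesterol and myelin lipid synthesis 6 rose and 1 fell, with Fdft1 (1.04, adjusted p = 0.000849) and Sqle (0.86, adjusted p = 0.00131), enzymes of sterol synthesis, in front. Of 10 astrocyte genes 1 rose and 4 fell. Of 10 neuronal genes Slc17a7, a glutamate transporter of cortex and some thalamic nuclei, fell (-1.16, adjusted p = 0.000271) and Gad2, an enzyme of inhibitory neurons, rose (1.05, adjusted p = 0.00411), beside Camk2a, which fell (-0.52, adjusted p = 0.0158). All 4 haemoglobin genes tested rose, Hbb-bt by 4.91 (adjusted p = 0.000252). The blood markers summed to 9.93 and 4.29 UMIs per 10000 in PTX thalamus and to 1.46 and 0.12 in Control, with 2.31 and 0.88 in PTX+GCV and 0.61 and 0.05 in sections labelled PTX+ABT263. Thalamus made up 15.40 and 11.77% of spots in PTX and 14.11 and 17.43% in Control.

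The sections labelled PTX+ABT263 moved against PTX in these lists too. Of the 36 other oligodendrocyte genes 13 rose and 0 fell, where 4.27% of all genes were called, with Il33 (0.67, adjusted p = 0.00290) and Tmem88b (0.62, adjusted p = 0.00656) in front. Of the transcription factors Sox10 (0.59, adjusted p = 0.0169), Olig1 (0.46, adjusted p = 0.0213) and Sox8 (0.90, adjusted p = 0.0263) rose. Of the axon and node genes 8 rose and 1 fell, of the lipid synthesis genes 1 rose and 4 fell, and of the astrocyte genes 3 rose, Gfap among them (1.29, adjusted p = 0.00112), and 1 fell. Of the neuronal genes 2 rose and 1 fell, and all 4 haemoglobin genes fell. Against PTX, PTX+GCV had 0 of 36 other oligodendrocyte genes called (1 at an unadjusted p under 0.05, against 0.221% of all genes called and 11.2% at that p), Slc17a7 higher (0.86, adjusted p = 0.0145) and Hbb-bt lower (-2.06, adjusted p = 0.0309).

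The isocortex, tested in the same way, gave no member past the threshold in any comparison. In PTX+GCV against PTX 0 of 9 passed edgeR and DESeq2 (0.0279% of all genes called by edgeR), 6 had an unadjusted p under 0.05 (6.78% of all genes), and all 9 fold changes were negative with a median of -0.29. For 8 of the 9 both PTX+GCV sections lay below both PTX sections, against 19.1% of all genes. Mobp had 297.0 and 284.6 CPM in PTX+GCV, against 373.6 and 370.0 CPM in PTX (-0.35 ± 0.09, adjusted p = 0.366). Mbp had 1492 and 1371 CPM in PTX+GCV, against 1556 and 1679 CPM in PTX (-0.18 ± 0.10, adjusted p = 0.763). In sections labelled PTX+ABT263 against PTX 0 of 9 passed either tool (0.23% of all genes called), with 2 at an unadjusted p under 0.05 (11.1% of all genes), Mobp and Mbp. Mobp had 426.9 and 486.5 CPM in sections labelled PTX+ABT263 (0.30 ± 0.09, adjusted p = 0.199) and Mbp 1762 and 2052 CPM (0.24 ± 0.10, adjusted p = 0.385). Neither overlaps the PTX values. Both sections labelled PTX+ABT263 lay above both PTX sections for 6 members (22% of all genes) and below them for Cnp alone (22.1% of all genes).

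Between PTX and Control in the isocortex 0 of 9 passed edgeR and DESeq2 (0.418% called), and 3 had an unadjusted p under 0.05 (12.5% of all genes). Fold changes of 6 members were positive. Mag had 99.87 and 104.7 CPM in PTX, against 62.17 and 92.26 CPM in Control (0.39 ± 0.13, adjusted p = 0.198). Mog had 45.94 and 42.92 CPM in PTX, against 24.91 and 41.73 CPM in Control (0.39 ± 0.15, adjusted p = 0.298). Control section 1 was low for both. Without Control section 2 Mag, Mog and Mal passed, with higher levels in PTX. Mbp (-0.05 ± 0.10) and Mobp (-0.18 ± 0.09) had negative values in the same comparison. These sums pool all distances from the fiber tracts. At 5 to 6 spacings the members together had 23.99 and 26.01 UMIs per 10000 in PTX, against 19.58 and 20.19 in Control. At 7 to 9 spacings they had 20.15 and 18.63 in PTX, against 17.97 and 12.35 in Control. The groups overlapped at 1 to 4 spacings. At 10 or more PTX was also higher, but Control section 2 had only 7 spots there. The part of this mix of distances was not tested.

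In the fiber tracts and in whole sections 0 of 9 members passed in any comparison by edgeR. Fiber tract Mbp ran to 17020 and 11350 CPM in PTX+GCV, 14200 and 18050 CPM in sections labelled PTX+ABT263, 14190 and 19980 CPM in PTX and 20070 and 14790 CPM in Control, so all groups overlap. Of the 9 members 9 were lowest in PTX+GCV section 2 and 6 highest in PTX section 2, the section that was lowest in the thalamus. For PTX+GCV against PTX the 9 fold changes were negative (median -0.27, 0.15% of all genes called), and 2 had an unadjusted p under 0.05 (7.63% of all genes). For PTX+ABT263 against PTX 0 had an unadjusted p under 0.05 (3.63% of all genes, with 0.0966% called), and for PTX against Control likewise 0 (5.36% of all genes, with 0.0536% called). Sections labelled PTX+ABT263 lay above PTX without overlap for 0 members (16.4% of all genes) and below for Mal alone (15.4%). DESeq2 called 0 in each of the 3.

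In whole sections of PTX+GCV against PTX all 9 fold changes were negative with a median of -0.37, and 7 had an unadjusted p under 0.05 (10.7% of all genes), where edgeR called 0.024% of all genes. Mog had 58.02 and 51.95 CPM in PTX+GCV, against 70.14 and 85.91 CPM in PTX (-0.51 ± 0.10, adjusted p = 0.112). Mal had 160.3 and 142.3 CPM in PTX+GCV, against 198.6 and 212.5 CPM in PTX (-0.44 ± 0.08, adjusted p = 0.112). Opalin had 42.26 and 30.77 CPM in PTX+GCV, against 50.76 and 57.30 CPM in PTX (-0.57 ± 0.12, adjusted p = 0.145). The groups do not overlap for these 3 genes, and DESeq2 called them, with its share of all genes called not given here. In all, 6 members had both PTX+GCV sections below both PTX sections, against 20.2% of all genes, and PTX+GCV section 2 was the lowest of all sections for the 9 members. That section also had the smallest share of its UMIs in the fiber tracts, 1.34%, and the part of this was not tested. Of the 36 other mature oligodendrocyte genes 21 had a negative change at an unadjusted p under 0.05 and 0 passed. For PTX+ABT263 against PTX only Mal had an unadjusted p under 0.05 (11.8% of all genes, with 0.138% called). Mal was also the 1 member for which both sections of that group lay below both PTX sections (22.3% of all genes, and 22.3% above, where no member was). For PTX against Control Mog and Mal had an unadjusted p under 0.05 (13.5% of all genes, with 0.126% called), and with Opalin they were the 3 members higher in both PTX sections than in both Control sections (21.8% of all genes). DESeq2 called 0 in both.

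Since the thalamus and the isocortex of 1 section share its preparation, the difference between them was compared between groups with limma, a comparison added after seeing the data. The isocortex values pool all distances from the fiber tracts, and sections differed in how many far spots they held. All 9 members had a smaller difference, thalamus minus isocortex, in both PTX sections than in both Control sections. The share of all genes for which this was so was not counted, so the count has no background here. Mag had a difference of 1.1 and 0.67 log2 CPM in the PTX sections, against 1.83 and 1.36 in the Control sections. The difference between the effects of PTX in the 2 regions was -0.71 ± 0.16 on the log2 scale (SE, adjusted p = 0.0116). Opalin had 0.35 and 0.19 in PTX, against 1.2 and 0.83 in Control (-0.75 ± 0.16, adjusted p = 0.0108). Ermn had 1.07 and 0.64 in PTX, against 1.79 and 1.31 in Control (-0.70 ± 0.17, adjusted p = 0.0202). Mal (-0.45 ± 0.12, adjusted p = 0.0411) and Cldn11 (-0.43 ± 0.12, adjusted p = 0.0488) also passed, which makes 5 of 9, where 4.89% of 12940 genes were called. The other 4 had adjusted p-values of 0.0509 to 0.114, and all 9 an unadjusted p under 0.05 (17.2% of all genes). PTX section 2 had the smallest difference of all 8 sections for 9 of 9 members, and both PTX sections had the smallest for 6. Neither count was taken over all genes. Control section 1 had the fewest UMIs of all sections in both regions, 2342040 in the thalamus and 5098637 in the isocortex. Its isocortex held 327 UMIs of Mag and 115 of Opalin. Thinned counts were not used for this comparison, and it was not run without the PTX+ABT263 group. Without PTX section 2 or without Control section 1 0 members passed.

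Against PTX, the differences were larger in PTX+GCV and in sections labelled PTX+ABT263 for all 9 members, but 0 passed in either (0.1% and 0.935% of all genes called). An unadjusted p under 0.05 was found for 7 members in PTX+GCV (8.02% of all genes) and 6 in sections labelled PTX+ABT263 (12.2%). Mobp had the smallest adjusted p in PTX+GCV (0.44 ± 0.12, adjusted p = 0.178), with 1.02 and 1.23 log2 CPM in PTX+GCV and 0.81 and 0.56 in PTX. Cldn11 had the smallest in sections labelled PTX+ABT263 (0.43 ± 0.12, adjusted p = 0.111), with 1.14 and 1.26 there and 0.84 and 0.69 in PTX. For fiber tracts minus isocortex limma called 0 of 9 members in each comparison (0.0107% of all genes for PTX+GCV against PTX, 0% for PTX+ABT263 against PTX and 0.0107% for PTX against Control). An unadjusted p under 0.05 was found for 0 members, against 5.13%, 2.31% and 4.66% of all genes in the same order.

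**Figure D5:**
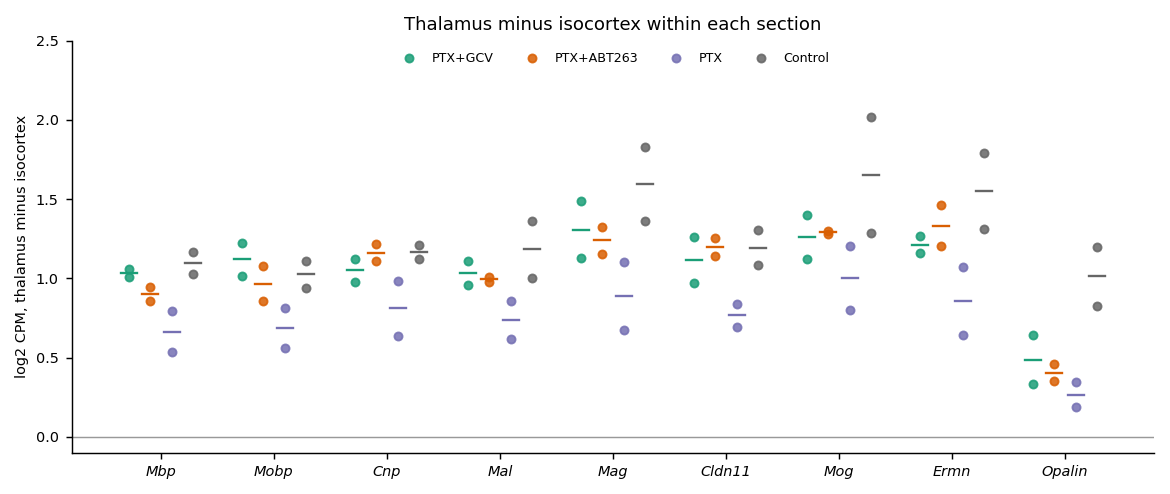
The log2 CPM of the thalamus minus that of the isocortex within each section, for each gene. Points are sections, short lines the mean of the 2 sections of a group. Both PTX sections lie below both Control sections for all 9 genes, and the share of all genes that do so was not counted.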

How the data were processed

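Visium spatial libraries of 8 coronal sections, 2 per group, were used. The deposited values are whole UMI counts for each gene in each spot, which the authors obtained with Space Ranger (the file headers give 1.2.1) and genome build mm10. Seurat 4.0 is also named in the submitters' processing notes. The members and gene lists were chosen with earlier results of these data known.

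Of the spots under tissue, 35 to 137 per section had under 200 genes or more than 30% mitochondrial UMIs and were dropped. Clustering used Seurat 5.3.0 with sctransform 0.4.2, RPCA integration over sections, 2000 features, 20 principal components and resolution 0.15 (R 4.3.3). The members and other mature oligodendrocyte genes were kept out of it, 45 listed genes of which 44 were among the top features. A cluster took a region's name when at least 3 of its markers were 2-fold higher than in other spots, 1.5 times as many as for the next region, with at least 1 among the 10 leading genes. This rule was chosen after seeing the data.

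UMIs were summed per section and region, and all 8 sections entered 1 model without covariates in edgeR 4.0.16 (filterByExpr, TMM, quasi-likelihood test, threshold 0.05 on the adjusted p). Standard errors were taken as the fold change on the log2 scale divided by the root of F. Differences between regions of a section were tested on log2 CPM with limma 3.58.1 (prior count 2). The fits were tested on simulated data. Shares of spots with a UMI are given as mean ± SD over 8 sections. The genes named are the 9 members, up to 3 per other list with the smallest p, and the 5 genes most like the members, of which 1 is not reported here. Promoter windows are RefSeq's on GRCm38.p6. Python 3.11.15, numpy 2.4.6, scipy 1.17.1, pandas 2.3.3 and matplotlib 3.10.9 were used for the rest.

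Equal section numbers gave no pairing, since deviations of sections that share one correlated at -0.115 to 0.0662. The alternatives were DESeq2 1.42.0, library totals, no filter on low counts, only the compared groups, no PTX+ABT263 group, all spots under tissue, thinned counts, a replicate block, resolution 0.3, Leiden clusters (scanpy 1.11.5, leidenalg 0.10.2, resolution 0.5), listed genes kept in the clustering, a prior count of 0.5, and each section left out (the single section remaining in its group was taken to vary as the others do). Thalamus minus isocortex and thalamus spots at least 3 spacings from fiber tracts were added after seeing the data. Images and the authors' clusters were not used here.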

Additional observations from a re-analysis of the deposited data

Results flagged for a closer look

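For 5 members the effect of PTX against Control differed between the thalamus and the isocortex of the same sections, by limma's test of that difference over 2 sections per group. The difference of the log2 effects, thalamus minus isocortex, was -0.71 for Mag, -0.45 for Mal, -0.43 for Cldn11, -0.70 for Ermn and -0.75 for Opalin. In the thalamus itself only Cldn11 and Ermn of these 5 passed edgeR. In the isocortex none of the 5 passed, with log2 fold changes of 0.39 for Mag, 0.27 for Mal, -0.08 for Cldn11, 0.17 for Ermn and 0.38 for Opalin. The difference between the regions was smaller in both PTX sections than in both Control sections for each of the 5, a count that was not taken over all genes. Without PTX section 2, or without Control section 1, 0 of the 5 passed. Control section 1 had the fewest UMIs of all sections in both regions. The comparison was added after seeing the data and was not run without the PTX+ABT263 group, and no cause was tested.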

How the results depend on the processing

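With 2 sections per group, several counts of called members moved with the processing, and the cause was not tested. The share of all genes called under each alternative is not given here. A higher count of members may therefore go with more calls among all genes. In the thalamus PTX against Control gave 4 members, 2 with only the 2 groups in the fit, and 0 to 8 when a section was left out, and PTX+ABT263 against PTX gave 5, 3 with library totals and 0 to 7 when a section was left out. In whole sections PTX+GCV against PTX gave 0 members with edgeR, 3 with DESeq2, 2 with library totals, 8 with no filter on low counts, 1 with only the 2 groups in the fit and 0 to 1 when a section was left out (Mal, without either Control section), and PTX against Control 1 with no filter. In the isocortex, with no filter, PTX+GCV against PTX gave 2 and PTX against Control 2, and with the filter PTX against Control gave 0 to 3 when a section was left out. For thalamus minus isocortex, leaving out a section gave 0 to 1 members for PTX+GCV against PTX, 0 to 1 for PTX+ABT263 against PTX (1 without PTX section 1 in both) and 0 to 7 for PTX against Control. The counts for the fiber tracts, for fiber tracts minus isocortex, for the thalamus of PTX+GCV against PTX, for the isocortex of both senolytic groups and for whole sections of PTX+ABT263 against PTX and PTX against Control stayed at 0 when a section was left out. With all spots under tissue the share of fiber tract spots for PTX+ABT263 against PTX differed by -1.423 percentage points, and with Leiden clusters by -1.087, both without overlap between the groups, and for PTX+GCV against PTX the sign turned (-1.054 with Leiden clusters, -0.064 with listed genes kept in the clustering). With the replicate block 4 members passed in the thalamus for PTX against Control and 4 for PTX+ABT263 against PTX, and 0 in each other comparison, where no pairing is given by the labels. Single genes were followed for the 35 values with an unadjusted p under 0.05 in the main fit, a choice that favours stable signs. Only the 4 and 5 called in the thalamus could lose a call, and the others count as kept when they stayed uncalled. Under other alternatives 339 of 368 kept their direction and side of the threshold, 11 no longer passed, 18 newly passed and 0 changed sign. Leaving out a section kept 247 of 280, with 26 that no longer passed, 7 that newly passed and 0 that changed sign. Fiber tract spots held 516755 to 1614015 UMIs per section, the fewest of the 3 regions.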
